A study of Mus musculus with 6 samples.

Results

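Cytosolic ribosomal proteins are the structural proteins of the ribosomes that translate messenger RNA in the cytoplasm. Their genes were taken by symbol and by level. A protein-coding row was a member when its symbol was Rpl or Rps followed by a number and at most a closing a, x or y, or was Rplp0, Rplp1, Rplp2 or Rpsa, and when it held at least 60 counts over the 6 libraries. The rule gave 76 of 40213 genes, 46 of the large subunit and 30 of the small subunit. All 76 also passed the filter on low counts that preceded the test, and none was at 0 counts in any library.

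The RNA came from epididymal white adipose tissue (eWAT), the visceral fat depot beside the epididymis of male mice. RFP KO-HFD mice lacked ret finger protein (RFP, an E3 ubiquitin ligase encoded by Trim27) in the whole body, and WT-HFD mice were the wild-type littermates they were set against. Mice of both groups were male, began a diet with 60% fat at 8 to 10 weeks of age and ate it for 12 weeks, and each group gave 3 libraries. The sources used here do not name the strain, and a whole-body deletion does not show in which cell type RFP was missing when a transcript differed.

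The cytosolic ribosome has a small subunit, which reads the messenger RNA, and a large subunit, which joins the amino acids and sends the new chain through an exit tunnel. Each subunit needs nearly all of its proteins in equal numbers, and their messengers belong to the TOP class, which start with a run of pyrimidines and whose translation depends on mTORC1, a kinase complex that responds to insulin and amino acids. Ribosomal protein messengers are among the most abundant and least tissue-restricted in a cell, so they can be measured in nearly any library.

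The libraries were not alike. Total counts were 4870239, 13924363 and 13309044 in RFP KO-HFD and between 15216306 and 17215047 in WT-HFD. Trim27 was at 19.4, 4.10 and 4.63 CPM in RFP KO-HFD, against 22.7, 40.2 and 29.5 CPM in WT-HFD (CPM is counts scaled to a common library size, here with TMM factors), so the first RFP KO-HFD value was close to the lowest WT-HFD value and goes against its label. That sample is called the library labelled RFP KO-HFD 1. The 10 adipocyte markers took 0.0396% of its counts, against 1.45% to 2.92% in the other 5 libraries, and Adipoq and Plin1 were at 0 there, so the labelled tissue was borne out by these markers in 5 of 6 libraries. All 15 hepatocyte markers had counts in every library, and together they took 3.20%, 0.339% and 0.477% of counts in RFP KO-HFD and 0.187% to 0.248% in WT-HFD. The 8 smooth muscle markers took 0.00271% to 0.101% in RFP KO-HFD and 0.176% to 2.44% in WT-HFD, with WT-HFD 2 the highest. WT-HFD 2 was also the highest for 8 markers of epididymis epithelium, at 0.109% beside 3.06e-05% to 0.000661% in the other 5 libraries. The same held for 10 mesothelium markers, at 0.1175% beside 0.00321% to 0.0550%. The 12 macrophage markers took 0.0502% to 0.181% of counts in RFP KO-HFD and 0.209% to 0.466% in WT-HFD, and the 11 preadipocyte and fibroblast markers 0.0218% to 0.195% in RFP KO-HFD and 0.215% to 0.517% in WT-HFD. Their part in the ribosomal protein values was not tested. In bulk tissue, fewer cells of a type and less RNA per cell cannot be told apart, and the p-values below measure only the spread between these 6 samples.

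The members' differences between libraries ran along the base composition of their coding sequences, so the first 120 coding bases of 4 of them are given here, chosen after their values were seen: Rplp2 and Rpl5 were the highest and the lowest in RFP KO-HFD 3 relative to WT-HFD, and Rpl23 and Rpl36 were the highest and the lowest in the library labelled RFP KO-HFD 1. The capitals mark G and C. They come from the GENCODE vM21 transcripts (GRCm38), 5′ to 3′ from the start codon, and the genes lie on chromosomes 7 (Rplp2), 5 (Rpl5), 11 (Rpl23) and 17 (Rpl36).
Rplp2: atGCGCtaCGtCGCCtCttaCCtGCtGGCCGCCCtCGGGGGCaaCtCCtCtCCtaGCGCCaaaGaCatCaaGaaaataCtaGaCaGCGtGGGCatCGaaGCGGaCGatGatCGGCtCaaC
Rpl5: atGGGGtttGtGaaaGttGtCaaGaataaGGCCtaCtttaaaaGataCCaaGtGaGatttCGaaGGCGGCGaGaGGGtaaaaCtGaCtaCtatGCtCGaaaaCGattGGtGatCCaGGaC
Rpl23: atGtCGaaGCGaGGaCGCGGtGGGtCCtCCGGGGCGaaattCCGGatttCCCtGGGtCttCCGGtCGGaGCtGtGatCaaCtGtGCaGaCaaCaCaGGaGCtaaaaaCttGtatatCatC
Rpl36: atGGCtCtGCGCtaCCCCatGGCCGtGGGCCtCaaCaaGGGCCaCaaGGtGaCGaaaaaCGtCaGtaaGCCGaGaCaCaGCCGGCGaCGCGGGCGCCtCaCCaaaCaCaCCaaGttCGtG
G and C made up 70 of these 120 bases in Rplp2, 52 in Rpl5, 65 in Rpl23 and 74 in Rpl36. Over the whole coding sequence the GC content was 56.8% in Rplp2, 46.0% in Rpl5, 49.0% in Rpl23 and 61.6% in Rpl36, which was the highest of the 76.

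Ribosomal protein genes stood near the top of every library. The lowest of the 76 was at or above percentile 90.5 of the 14706 tested genes in each library, and the median member lay between percentiles 97.2 and 98.4. Mean levels ran between 161 CPM (Rps25) and 1523 CPM (Rpsa) in RFP KO-HFD and between 139 CPM (Rps27) and 1076 CPM (Rpsa) in WT-HFD. Per kilobase of coding sequence the median member had 838 CPM in RFP KO-HFD and 644 CPM in WT-HFD. On that per-length scale Rpl41, which encodes a very short basic peptide, was the highest, with 15590 CPM per kilobase in RFP KO-HFD and 11540 in WT-HFD, and Rpl15 was the lowest, with 335 CPM per kilobase in RFP KO-HFD and 231 in WT-HFD. Of 6634 genes at 10 CPM or more in the other 5 libraries, 816 (12.3%) were at 0 in the library labelled RFP KO-HFD 1, and none of the 76 members was among them.

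Whether the members as a class were higher in RFP KO-HFD depended on what they were measured against. They took 3.22%, 3.84% and 2.99% of all counts in RFP KO-HFD, against 2.87%, 3.75% and 3.07% in WT-HFD. The groups overlapped, with means of 3.35% ± 0.44 and 3.23% ± 0.461 (SD, n = 3 each) and a ratio of 1.04. As a share of the counts of protein-coding genes outside the mitochondrial genome, the same genes took 4.82%, 4.90% and 4.72% in RFP KO-HFD, against 3.19%, 4.10% and 3.38% in WT-HFD, a ratio of 1.35 with no overlap. No test was made of these sums. The 95% Wilson intervals reached at most 0.0233 percentage points either side of a share and cover counting error only.

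**Figure D1:**
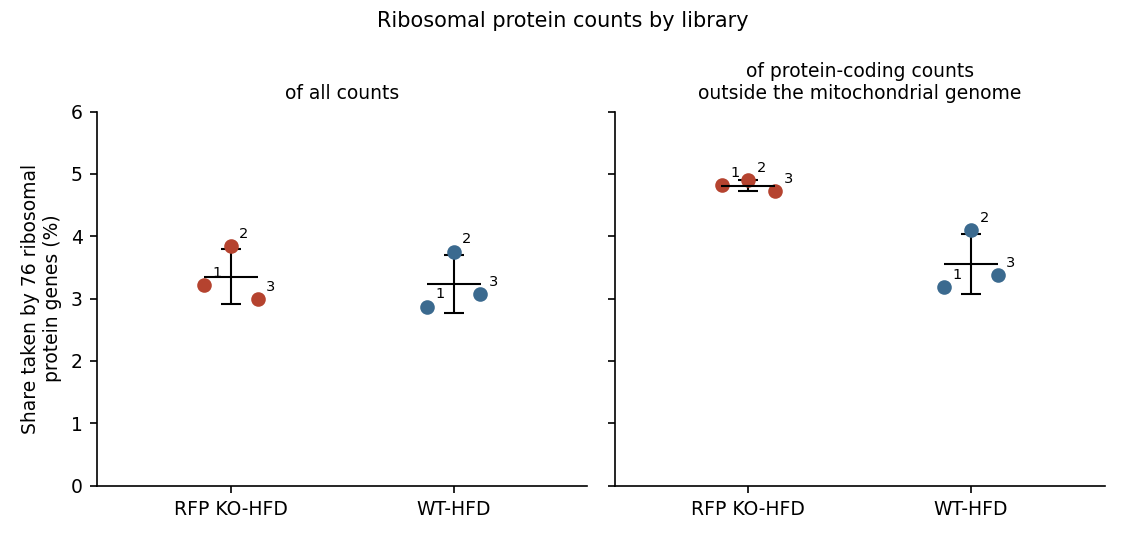
Share of counts taken by the 76 ribosomal protein genes in each library, as a percentage of all counts (left) and of protein-coding counts outside the mitochondrial genome (right). Points are libraries with their replicate number, bars the group mean ± SD (n = 3); the groups overlap on the left, and on the right the 3 RFP KO-HFD libraries sit between 4.72% and 4.90%, above the highest WT-HFD library at 4.10%.

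Most of the counts outside the second denominator belonged to 2 other features. Gm26917, a long noncoding RNA gene in the deposited table, took 9.53%, 12.5% and 24.5% of counts in RFP KO-HFD, against 3.39%, 4.18% and 3.56% in WT-HFD. Genes of the mitochondrial genome took 22.3%, 8.07% and 11.1% in RFP KO-HFD, against 5.74%, 3.39% and 4.84% in WT-HFD. Protein-coding genes outside it were left with 66.8%, 78.3% and 63.3% of counts in RFP KO-HFD, against 90.1%, 91.5% and 90.8% in WT-HFD. TMM, which scales on the bulk of genes, gave the members a range of 3.17% to 4.38% of effective counts in RFP KO-HFD and 2.57% to 3.25% in WT-HFD.

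The balance between the subunits did not separate the groups. Counts of the 46 large-subunit genes exceeded those of the 30 small-subunit genes 1.58, 1.67 and 1.62 times in RFP KO-HFD, against 1.68, 1.70 and 1.63 times in WT-HFD, and the groups overlapped. The median log2 fold change (RFP KO-HFD over WT-HFD, edgeR) was 0.33 for the large subunit and 0.47 for the small subunit.

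By TMM-scaled fold change 72 of the 76 members were higher in RFP KO-HFD and 4 lower, where 44% of all tested genes were higher. Their log2 fold changes ran between -0.10 and 1.13 with a median of 0.38, beside a median of -0.13 over all tested genes. With library totals in place of TMM factors, 42 members were higher and 34 lower, and the medians were 0.04 for the members and -0.50 for all tested genes, so the whole distribution shifted and the members stayed above its middle. None of the differences passed the test: edgeR's quasi-likelihood test with Benjamini-Hochberg adjustment called 0 of 76 members and 0% of all 14706 genes, and the lowest adjusted p of a member was 0.67 (Rps28). At an unadjusted p under 0.05, 2 members were higher, Rps28 and Rpl18, which is 2.63% of them beside 4.05% of all genes, and 0 were lower, beside 2.7%. DESeq2 called 2 members, both higher, beside 3.32% of all genes. Voom in limma called 0 members and 0% of genes. With a quality weight per library it called 9 members, all higher (Rplp2, Rps28, Rpl18, Rps21, Rps14, Rpl13a, Rps9, Rps27 and Rps10, adjusted p between 0.0204 and 0.0364), beside 7.07% of all genes.

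Counting only genes whose groups did not overlap, each RFP KO-HFD value exceeded each WT-HFD value on the TMM scale for 22 members (10 of the large subunit, 12 of the small), beside 7.28% of all tested genes, and each was lower for 0, beside 16%. As a share of protein-coding counts outside the mitochondrial genome, the members above numbered 23, beside 6.69% of such genes, and those below 0, beside 16.9%. On library totals 4 members remained above (Rpl9, Rpl18, Rps9 and Rps28), beside 3.53% of genes, and Rpl11 alone was below, beside 27.8%. These counts describe the members relative to other genes and not an amount per cell.

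These counts changed when the library labelled RFP KO-HFD 1 was dropped. RFP KO-HFD 2 and 3 exceeded every WT-HFD value on the TMM scale for 50 members, beside 21.5% of all genes, and lay below every one for 1, beside 24.7%. At an unadjusted p under 0.05 edgeR then had 32 members higher, beside 12.1% of the 15606 genes tested, and 0 lower, beside 12.6%. It called no member after adjustment, and the lowest adjusted p was 0.0849 (Rps28). The median log2 fold change of the members was 0.44, beside -0.07 for all genes, and 6 members that were higher in the fit of 6 libraries had a fold change below 0. Against WT-HFD 1 and 3 alone, 36 members were higher in all 3 RFP KO-HFD libraries on the TMM scale, beside 10.3% of all genes.

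The P stalk of the large subunit, formed by Rplp0, Rplp1 and Rplp2, calls elongation factors to the ribosome. Rplp2 was at 590, 1274 and 2227 CPM in RFP KO-HFD, against 504, 768 and 599 CPM in WT-HFD, and had the largest log2 fold change of the 76 (1.13 ± 0.579 SE, edgeR adjusted p = 0.79). RFP KO-HFD 2 and 3 were above every WT-HFD library, and the library labelled RFP KO-HFD 1 was within the WT-HFD range. Without that library the log2 fold change was 1.48 ± 0.33 (edgeR adjusted p = 0.0972). Rplp1 was at 522, 1159 and 1728 CPM in RFP KO-HFD, against 491, 946 and 657 CPM in WT-HFD (log2 fold change 0.70, edgeR adjusted p = 0.90). The stalk base Rplp0 was at 906, 1255 and 1773 CPM in RFP KO-HFD, against 714, 936 and 908 CPM in WT-HFD (0.62, adjusted p = 0.88). All 3 had the same order of RFP KO-HFD libraries, with RFP KO-HFD 3 the highest and the library labelled RFP KO-HFD 1 inside the WT-HFD range.

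Among core proteins of the large subunit, Rpl3, which lies near the site of peptide bond formation, was at 609, 566 and 529 CPM in RFP KO-HFD, against 475, 660 and 493 CPM in WT-HFD. Rpl4, which lines the exit tunnel, was at 856, 604 and 556 CPM in RFP KO-HFD, against 618, 689 and 563 CPM in WT-HFD. Rpl39, another protein of the exit tunnel, was at 209, 243 and 271 CPM in RFP KO-HFD, against 182, 172 and 192 CPM in WT-HFD. The groups overlapped for Rpl3 and Rpl4 (log2 fold changes 0.07 and 0.11) and did not for Rpl39 (0.40 ± 0.318 SE, edgeR adjusted p = 0.90). Rpl10, which is added late and lets the subunits join, was at 546, 639 and 566 CPM in RFP KO-HFD, against 386, 552 and 429 CPM in WT-HFD, and its ranges overlapped by the lowest RFP KO-HFD value alone.

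Rpl5 and Rpl11 carry the 5S ribosomal RNA into the large subunit and, outside the ribosome, bind Mdm2, the ligase that restrains p53. Rpl5 was at 831, 449 and 322 CPM in RFP KO-HFD, against 491, 472 and 446 CPM in WT-HFD, so 1 library was above and 1 clearly below the WT-HFD range. Rpl11 was at 303, 337 and 304 CPM in RFP KO-HFD, against 322, 327 and 299 CPM in WT-HFD, a log2 fold change of -0.01 ± 0.322 SE. The partners thus differed in spread, although neither differed between genotypes beyond it (edgeR adjusted p = 0.97 for Rpl5 and 0.998 for Rpl11).

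Of the other large-subunit members, Rpl22, an RNA-binding protein that the ribosome can do without, was at 324, 226 and 206 CPM in RFP KO-HFD, against 181, 177 and 165 CPM in WT-HFD, with no overlap (log2 fold change 0.53 ± 0.345 SE, edgeR adjusted p = 0.86). Rpl18 was at 310, 371 and 487 CPM in RFP KO-HFD, against 181, 245 and 210 CPM in WT-HFD (0.88 ± 0.366 SE, adjusted p = 0.74). Rpl13a, which in human cells leaves the ribosome after interferon to silence certain messengers, was at 838, 1234 and 1314 CPM in RFP KO-HFD, against 602, 928 and 637 CPM in WT-HFD. Only Rpl13a of these 3 overlapped, where the library labelled RFP KO-HFD 1 (838 CPM) was below WT-HFD 2 (928 CPM) alone. Rpl41 was at 456, 1247 and 1806 CPM in RFP KO-HFD, against 634, 1125 and 837 CPM in WT-HFD. It had the widest range over RFP KO-HFD of all members, 1.98 on the log2 scale. Rpl32, with 340, 292 and 252 CPM in RFP KO-HFD against 306, 312 and 304 CPM in WT-HFD, and the least abundant large-subunit members, Rpl34 and Rpl30, with RFP KO-HFD means of 182 and 179 CPM and WT-HFD means of 148 and 160 CPM, did not separate the groups.

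In the small subunit, Rps28, a small protein near the channel where messenger RNA leaves, had the lowest p of the 76. It was at 295, 374 and 402 CPM in RFP KO-HFD, against 162, 203 and 192 CPM in WT-HFD, and every RFP KO-HFD library was above every WT-HFD library (log2 fold change 0.94 ± 0.34 SE, edgeR adjusted p = 0.67, DESeq2 adjusted p = 0.0307). Rps9, which binds 18S ribosomal RNA early in assembly, was at 688, 707 and 1034 CPM in RFP KO-HFD, against 378, 472 and 436 CPM in WT-HFD (0.92 ± 0.388 SE, edgeR adjusted p = 0.74). Rps14, a protein of the platform of the small subunit, was at 380, 581 and 733 CPM in RFP KO-HFD, against 232, 341 and 302 CPM in WT-HFD (0.95 ± 0.416 SE, adjusted p = 0.76). These were the largest fold changes of the small subunit among the members named here, and the groups overlapped in none of the 3.

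Rps6 is phosphorylated by the S6 kinases below mTORC1 and serves as the usual readout of that pathway. Its messenger was at 608, 422 and 466 CPM in RFP KO-HFD, against 317, 350 and 341 CPM in WT-HFD (log2 fold change 0.57 ± 0.355 SE, edgeR adjusted p = 0.85), with no overlap. Reads of Rps6 can be split with its pseudogene Rps6-ps4, given below. Rps3, which guards the channel where messenger RNA enters, was at 619, 334 and 395 CPM in RFP KO-HFD, against 307, 315 and 320 CPM in WT-HFD, and Rps19, the gene first linked to Diamond-Blackfan anaemia in humans, at 349, 480 and 560 CPM in RFP KO-HFD, against 307, 307 and 326 CPM in WT-HFD. The groups did not overlap for either, and the library labelled RFP KO-HFD 1 was the highest for Rps3 and the lowest of its group for Rps19. Rps2, a neighbour of Rps3, was at 324, 679 and 1131 CPM in RFP KO-HFD, against 453, 539 and 512 CPM in WT-HFD, with 1 library below and the others above the WT-HFD range.

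Rpsa, which is also known as a laminin receptor, was the most abundant member, at 1202, 1353 and 2013 CPM in RFP KO-HFD, against 871, 1269 and 1089 CPM in WT-HFD. Rps24, another gene of Diamond-Blackfan anaemia, was at 840, 777 and 589 CPM in RFP KO-HFD, against 606, 678 and 570 CPM in WT-HFD. Rps15 was at 484, 1074 and 1415 CPM in RFP KO-HFD, against 528, 899 and 717 CPM in WT-HFD. Each of these overlapped between the groups (log2 fold changes of 0.50, 0.25 and 0.47). Rps4x, encoded on the X chromosome, had means of 551 CPM in RFP KO-HFD and 508 CPM in WT-HFD, Rps27a, which is made as a fusion with ubiquitin, had 294 CPM in RFP KO-HFD and 240 CPM in WT-HFD, and Rps29, a small zinc-binding protein, had 216 CPM in RFP KO-HFD and 206 CPM in WT-HFD. Rps25, which some viral messengers need to start translation without a cap, had means of 161 CPM in RFP KO-HFD and 150 CPM in WT-HFD. Rps15a, whose fold change was below 0, was at 152, 199 and 170 CPM in RFP KO-HFD, against 165, 187 and 177 CPM in WT-HFD. Rps26 had the widest range within WT-HFD, with 399, 805 and 383 CPM there and 488, 595 and 653 CPM in RFP KO-HFD, so its highest value of all 6 was WT-HFD 2.

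**Figure D2:**
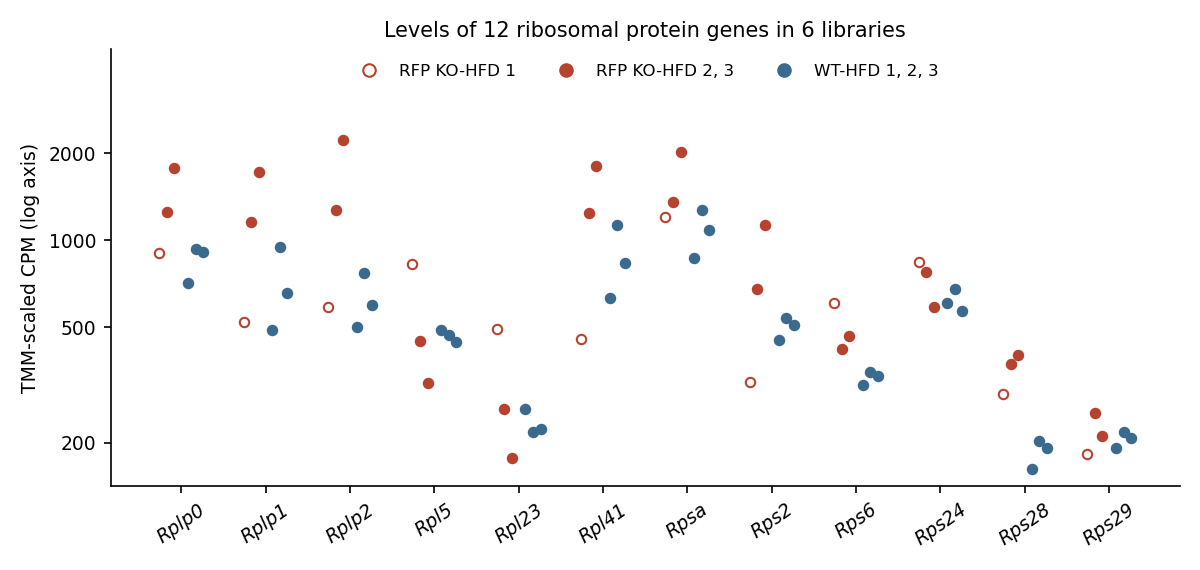
TMM-scaled CPM (log axis) of 12 ribosomal protein genes in each of 6 libraries, RFP KO-HFD to the left of WT-HFD for each gene, with the library labelled RFP KO-HFD 1 as an open circle. The open circle is the lowest of the 6 for Rpl41, Rps2 and Rps29 and the highest for Rpl5, Rpl23, Rps6 and Rps24, while for Rps28 all 3 RFP KO-HFD points (295 to 402 CPM) lie above the WT-HFD points (162 to 203 CPM).

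The members did not move as a block. For each gene the mean log2(CPM + 1) over WT-HFD was subtracted from each library. The median difference was 0.18, 0.41 and 0.47 in RFP KO-HFD, against -0.09, 0.14 and -0.04 in WT-HFD. The interquartile range over the 76 was 0.71, 0.35 and 0.86 in RFP KO-HFD, against 0.20, 0.21 and 0.13 in WT-HFD, so each RFP KO-HFD library was spread more widely than each WT-HFD library. More than a doubling or halving was seen for 2, 4 and 16 members in RFP KO-HFD and for 0 in any WT-HFD library. Over all 14706 tested genes it was seen for 10007, 2365 and 3884 in RFP KO-HFD, against 187, 799 and 189 in WT-HFD. Among 1522 genes at 100 CPM or more it was seen for 935, 194 and 422 in RFP KO-HFD, against 23, 64 and 28 in WT-HFD. The wider spread of the RFP KO-HFD libraries was thus not particular to the members. WT-HFD differences are taken from a mean that holds the library itself, which narrows them. Over all tested genes the interquartile range was 2.95, 0.86 and 1.17 in RFP KO-HFD, against 0.33, 0.51 and 0.27 in WT-HFD, so the members were tighter than the whole in every library, and the ratio was smallest in the library labelled RFP KO-HFD 1. The range between replicates of 1 group was wider in RFP KO-HFD than in WT-HFD for 65 of 76 members, a count not made over all genes.

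**Figure D3:**
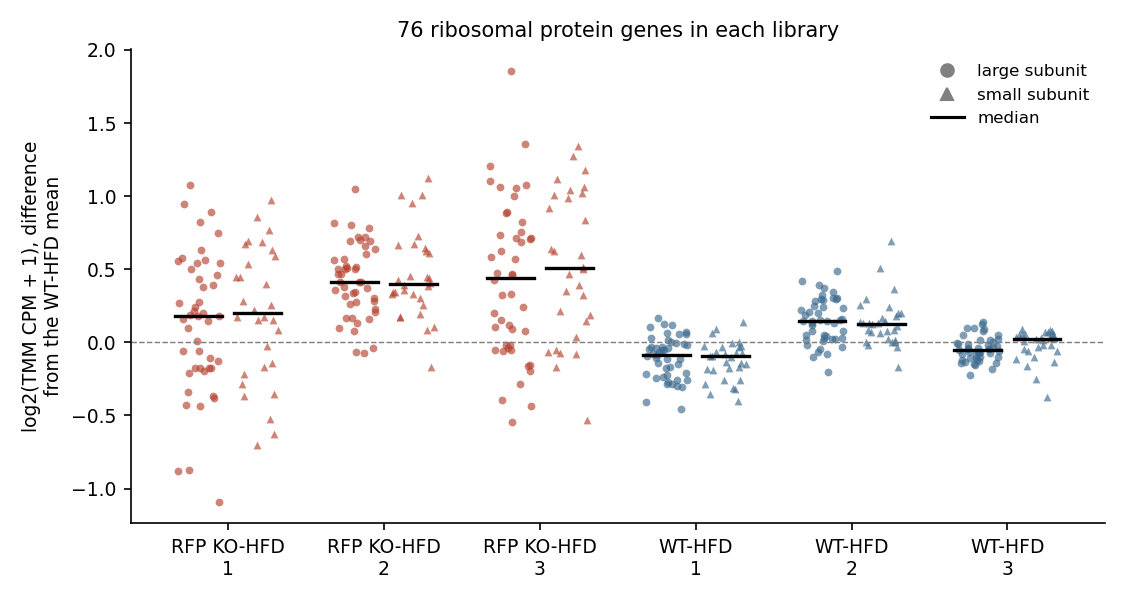
Each point is 1 of 76 ribosomal protein genes in 1 library, as log2(TMM CPM + 1) minus the mean of that gene over WT-HFD; circles are large-subunit and triangles small-subunit genes, black lines the medians of each. Points of the 3 RFP KO-HFD libraries reach between -1.09 and 1.86 and those of the WT-HFD libraries between -0.45 and 0.69, and the subunit medians lie close together within each library.

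The RFP KO-HFD libraries spread in different directions. Of the 76 members, 21 were highest of all 6 libraries in the library labelled RFP KO-HFD 1 and 19 were lowest there. RFP KO-HFD 3 was the highest for 34 and the lowest for 10, and RFP KO-HFD 2 the highest for 18 and the lowest for 0. The WT-HFD libraries were the highest for 0, 3 and 0 members. These counts were not made over all tested genes, which also spread more widely in RFP KO-HFD, so they are not shown to be particular to the members. Across the 76 genes the differences of RFP KO-HFD 2 and 3 ran together (Pearson r = 0.84), and those of the library labelled RFP KO-HFD 1 had r = -0.36 with RFP KO-HFD 3 and r = -0.27 with RFP KO-HFD 2. Over 1471 protein-coding nuclear genes at 100 CPM or more the same 3 correlations were 0.85, 0.24 and 0.25. That RFP KO-HFD 2 and 3 ran together was thus not particular to the members. Within the members, the library labelled RFP KO-HFD 1 had r = -0.52 with RFP KO-HFD 3 and -0.38 with RFP KO-HFD 2 over the 46 large-subunit genes. Over the 30 small-subunit genes it had -0.10 and -0.12. These are descriptions across 76 genes that are not independent and that share the WT-HFD mean as their reference. Levels themselves correlated at r = 0.94 to 0.97 between WT-HFD libraries, 0.96 between RFP KO-HFD 2 and 3, and 0.58 to 0.84 between the library labelled RFP KO-HFD 1 and any other.

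This order followed coding GC content, which ran between 44.9% and 61.6% over the members. Across the 76 the difference from WT-HFD correlated with coding GC at r = -0.42, 0.48 and 0.61 in RFP KO-HFD, and at r = -0.54, 0.40 and 0.14 in WT-HFD. Both signs thus occurred within each genotype. In RFP KO-HFD the values were -0.57, 0.55 and 0.58 over the 46 large-subunit genes and -0.19, 0.39 and 0.67 over the 30 small-subunit genes. Over 13254 protein-coding nuclear genes the same correlations were -0.21, 0.22 and 0.13 in RFP KO-HFD and -0.25, 0.22 and -0.14 in WT-HFD, with the same sign as the members in all libraries but WT-HFD 3. The genes of a library share its depth and preparation, and WT-HFD differences sum to 0 by construction, so WT-HFD values of opposite sign are not separate findings.

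Split by coding GC, the 25 members of lowest GC (44.9% to 50.7%) had a median difference of 0.46, 0.33 and -0.02 in RFP KO-HFD, and the 25 of highest GC (54.7% to 61.6%) of -0.03, 0.62 and 0.89. In RFP KO-HFD 2 and 3 all 25 high-GC members were above the WT-HFD mean, against 12 in the library labelled RFP KO-HFD 1, where 22 of the low-GC members were above it. In WT-HFD 1 and 2 the median was -0.03 and 0.07 for low GC and -0.24 and 0.23 for high GC. The high-GC members took 37.6%, 46.7% and 52.9% of all member counts in RFP KO-HFD, against 39.5%, 44.5% and 42.6% in WT-HFD. Each GC class, the middle one included, held 15 or 16 large-subunit genes.

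The 4 genes whose coding bases are printed above show both ends. Rpl36, of highest GC, was at 145, 482 and 507 CPM in RFP KO-HFD, against 259, 363 and 313 CPM in WT-HFD. Rpl23, which lies at the face between the subunits, was at 492, 262 and 178 CPM in RFP KO-HFD, against 262, 218 and 223 CPM in WT-HFD. Relative to WT-HFD, Rpl36 was -1.09, 0.64 and 0.71 and Rpl23 was 1.08, 0.17 and -0.39 in RFP KO-HFD on a log2 scale, so the libraries ranked these genes in opposite order. Rplp2 (-0.06, 1.05 and 1.86) went with Rpl36, and Rpl5 (0.82, -0.06 and -0.54) with Rpl23. Over the 3 RFP KO-HFD libraries the opposite values of Rpl36 and of Rpl23 largely cancelled, and the log2 fold changes were 0.28 for Rpl36 and 0.41 for Rpl23. Rpl5 had 0.19. Rplp2, which was near its WT-HFD mean in the library labelled RFP KO-HFD 1, had 1.13.

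**Figure D4:**
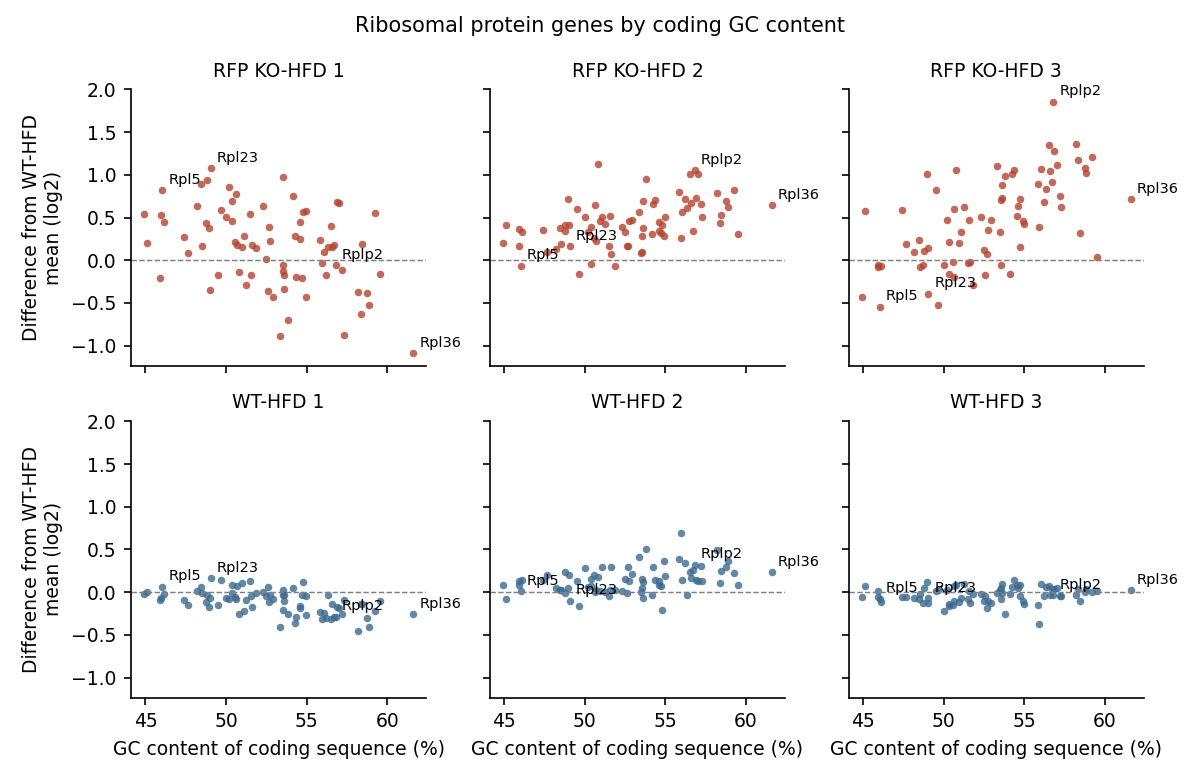
Difference of each of the 76 ribosomal protein genes from its WT-HFD mean (log2 scale) against the GC content of its coding sequence (%), 1 panel per library, RFP KO-HFD above WT-HFD. Points fall with GC in the library labelled RFP KO-HFD 1 (r = -0.42) and rise with it in RFP KO-HFD 2 and 3 (r = 0.48 and 0.61), and WT-HFD 1 and 2 tilt less steeply in the same 2 senses.

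Pyrimidine runs near the annotated start, a rough stand-in for the feature of TOP messengers, did not sort the members by fold change. RefSeq start windows (GRCm38.p6) matched 56 of 76 members, and in 28 (50%) the transcript strand held an uninterrupted run of at least 7 C or T bases that overlapped the 10 bases on either side of the annotated start, beside 19.4% of 16105 other protein-coding genes. The first listed start of each gene was used, and a match is a description, not a site. The rule also takes runs that end before the start and misses runs shorter than 7. It therefore cannot tell which members are TOP messengers, and the medians below do not bear on that class. The median log2 fold change was 0.37 for the 28 with a run, 0.44 for the 28 without and 0.30 for the 20 with no window. The window of Rplp2, which had the largest fold change, is shown between 30 bases before and 20 bases after its start on the plus strand, chr7:141447621-141447670, with the run in capitals.
Rplp2: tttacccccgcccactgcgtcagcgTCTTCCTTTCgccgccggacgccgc

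Reads can be shared with copies, since ribosomal protein genes have many processed pseudogenes. The 7 rows of pseudogene type with a member's name held 1.29%, 1.20% and 1.08% as many counts as the members in RFP KO-HFD, against 0.895%, 0.918% and 0.757% in WT-HFD. The 18 other rows named as pseudogenes or retrogenes held 0.593% to 0.694% in RFP KO-HFD and 0.504% to 0.589% in WT-HFD. Both were higher in every RFP KO-HFD library than in any WT-HFD library and small beside the members as a class. Rps6-ps4 held most counts of the 7 rows, and without it the groups overlapped. The retrogene Rps27rt held 514, 1382 and 883 counts in RFP KO-HFD, against 626, 856 and 515 in WT-HFD. Without Rps27rt the other rows named as pseudogenes or retrogenes were lower in every RFP KO-HFD library than in any WT-HFD library, relative to the members. Levels of members with such copies, Rps6, Rplp2, Rps27 and Rps12 among them, are uncertain where reads could be split. Rps6-ps4 held 1672, 4330 and 2234 counts in RFP KO-HFD, where Rps6 held 3009, 5772 and 4229. In WT-HFD it held 2886, 3444 and 2657, where Rps6 held 5798, 6157 and 6528.

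Other parts of the translation machinery were read from lists of genes. Among 13 ribosomal protein genes outside the naming rule, 10 were tested, 6 higher and 4 lower, with a median log2 fold change of 0.12. Rps27rt, a retrogene copy of Rps27, was at 104, 101 and 97.2 CPM in RFP KO-HFD, against 34.3, 48.7 and 26.9 CPM in WT-HFD (log2 fold change 1.46, edgeR adjusted p = 0.60). Fau, whose product is a fusion that yields a small-subunit protein, was at 475, 781 and 956 CPM in RFP KO-HFD, against 350, 614 and 394 CPM in WT-HFD. Rps27rt did not overlap between the groups and Fau did.

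The 20 elongation factors and other TOP messengers had a median of 0.23 (14 higher, 6 lower), the 50 ribosome biogenesis genes 0.12 (31 and 19), the 22 tested genes of mTORC1 control 0.00 (11 and 11), the 17 of the response to stalled or stressed ribosomes 0.04 (9 and 8), and the 28 initiation factors -0.07 (11 and 17). The 78 mitochondrial ribosomal proteins, which serve a separate ribosome, had a median of 0.01 (41 and 37), against 0.38 for the 76 cytosolic members. In edgeR none of these 225 genes was called, beside 0% of all genes. At an unadjusted p under 0.05 there were 2 higher, Rps27rt and Myc, beside 4.05% of all genes, and 1 lower, Vim, beside 2.7%. DESeq2 called 1 (Rps27rt), beside 3.32% of all genes, and voom 0, beside 0%. With quality weights voom called 7, of which 5 were higher and 2 lower, beside 7.07% of all genes. When the library labelled RFP KO-HFD 1 was dropped, the medians were -0.23 for elongation and TOP messengers, -0.02 for biogenesis and 0.22 for mitochondrial ribosomal proteins.

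Fbl, the methyltransferase of ribosomal RNA, was at 207, 45.6 and 51.8 CPM in RFP KO-HFD, against 28.6, 41.9 and 33.6 CPM in WT-HFD. Its partner in the same complex, Nop58, was at 54.6, 27.3 and 36.7 CPM in RFP KO-HFD, against 22.0, 19.7 and 20.8 CPM in WT-HFD. Myc, a transcription factor that drives ribosome production, was at 32.3, 6.36 and 17 CPM in RFP KO-HFD, against 5.47, 3.64 and 4.39 CPM in WT-HFD (log2 fold change 2.04, edgeR unadjusted p = 0.0362). All 3 were above WT-HFD in every RFP KO-HFD library. Vim, a TOP messenger for the filament protein of fibroblasts and macrophages, was at 552, 932 and 981 CPM in RFP KO-HFD, against 3201, 1020 and 2655 CPM in WT-HFD (-1.48, unadjusted p = 0.0406), and both the macrophage and the preadipocyte and fibroblast markers given above took lower shares in every RFP KO-HFD library than in any WT-HFD library. Their part in the Vim values was not tested. The cap-binding factor Eif4e was at 19.6, 31.7 and 25.2 CPM in RFP KO-HFD, against 48.0, 35.3 and 43.2 CPM in WT-HFD, and Eif2s1, a subunit of the factor that brings the initiator tRNA, at 21.8, 19.7 and 16.1 CPM in RFP KO-HFD, against 41.0, 22.5 and 45.3 CPM in WT-HFD. Both were lower in all 3 RFP KO-HFD libraries than in any WT-HFD library. Log2 fold changes were above 0 for Larp4, an RNA-binding protein (1.21), and Eif2ak2, a kinase that senses double-stranded RNA (1.11). The same held for Gas5, a TOP noncoding RNA (0.97), and Zfp598, which detects collided ribosomes (0.48). None of them passed the test. Larp4 was at 37, 13.7 and 18.3 CPM in RFP KO-HFD, against 9.19 to 10.7 CPM in WT-HFD. Eif2ak2 was at 111.6, 29.99 and 33.8 CPM in RFP KO-HFD, against 23.85 to 31.8 CPM in WT-HFD, a range that held RFP KO-HFD 2. Gas5 was at 91.4, 30.9 and 28.6 CPM in RFP KO-HFD, against 23.8 to 28.1 CPM in WT-HFD. The fold changes of these 3 thus drew most on the library labelled RFP KO-HFD 1, which was the lowest of its group for Zfp598.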

How the data were processed

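RNA of eWAT was sequenced in 3 RFP KO-HFD and 3 WT-HFD libraries. The methods give a CORALL kit with poly(A) selection for library preparation, Fastp for trimming, STAR for alignment and Salmon for quantification. In the submitters' processing notes the tools are FastQC, Trimmomatic and STAR with the mm10 build, the labels add a step removing ribosomal RNA, and the deposited information sheet names GRCm39, whose chromosome versions the table carries. No tool versions were found in the sources used here. Deposited by the authors were whole-number counts per gene and library, which were analysed here, and log2 values of TMM-normalized CPM plus 1, from which no value is given. Columns of the authors' own comparison (folds, p-values and q-values) were not used. Whether strand was used in counting is not given in the sources used here.

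The main test was edgeR's quasi-likelihood test (version 4.0.16, R 4.3.3; glmQLFit with robust estimation) of genotype alone, after TMM scaling and filterByExpr with min.count 10 and min.total.count 15. It covered 14706 of 40213 genes, and p-values were adjusted by Benjamini-Hochberg over all of them. Other settings tried were DESeq2 1.42.0, voom in limma 3.58.1 with or without quality weights, RLE and upper-quartile factors, library totals, protein-coding nuclear genes only, no filter, at least 10 counts in every library, a block for replicate number, and the omission of each library in turn or of RFP KO-HFD 1 with WT-HFD 2. Non-overlap under other scalings or fewer libraries was chosen after seeing the data. The fits were tested on simulated data. Total counts ran between 4870239 and 17215047, and low totals widen the error of the library labelled RFP KO-HFD 1. No 2 libraries agreed within counting noise. WT-HFD 1 and 3 were the most alike, with r = 0.993 between their levels over all tested genes. The other WT-HFD pairs had r = 0.918 and 0.923. Differences within libraries used a pseudocount of 1 CPM. Coding length and GC came from GENCODE vM21 and start windows from RefSeq (GRCm38.p6), matched by symbol.

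The members and lists were chosen with earlier results of these data known. Named genes were members of set roles, the 3 of smallest p in each direction, the 3 of highest mean CPM in each subunit, the 3 of lowest mean CPM, the 3 of widest WT-HFD range, Trim27, and the 2 of smallest p in each translation list. Some members that this rule names are not reported here. Rpl9, Rpl23, Rpl36 and the members named as called by other tools were added after their values were seen.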

Additional observations from a re-analysis of the deposited data

How the results depend on the processing

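Across the 17 alternatives to the edgeR fit of 6 libraries, the median log2 fold change of the members stayed above 0. It was 0.036 with library totals (large subunit 0.00090, small 0.080), where 42 members were higher. The large-subunit median was 0.50 with quality weights. With 1 library left out, or RFP KO-HFD 1 and WT-HFD 2 together, it ran between 0.27 and 0.52 for the large subunit and between 0.34 and 0.51 for the small one.

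The number of members at an unadjusted p under 0.05 was 2 in edgeR (beside 6.75% of all genes tested), 1 with at least 10 counts in every library (11.3%), 0 with library totals (8.01%) or no filter (6.89%), 5 with upper-quartile factors (6.94%) or voom (8.36%), 9 in DESeq2 (11.9%), 44 with quality weights (28.0%) and 42 without RFP KO-HFD 1 and WT-HFD 2 (31.7%). With 1 library left out it was 32 without RFP KO-HFD 1 (24.7%) and 0 without any other (2.93% to 12.3%). Calls after adjustment numbered 2 in DESeq2 (3.32% of all genes), 9 with quality weights (7.07%) and 1 (Rps21) without RFP KO-HFD 1 and WT-HFD 2 (3.35%). The ratio of the members' share of counts was 1.35 per protein-coding nuclear count. Members above WT-HFD in all RFP KO-HFD libraries numbered 22 (beside 7.28% of all genes), and 4 with library totals (3.53%). With 1 library left out they numbered 22 to 50 (7.97% to 21.5%). Of these, 50 was without RFP KO-HFD 1 (21.5%) and 36 without WT-HFD 2 (10.3%).

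Replicate numbers did not pair the samples: deviations of same-numbered libraries correlated at 0.0286, 0.0232 and 0.0521. With the number as a block, 0 members were called and 0 had an unadjusted p under 0.05 (2.67% of all genes), and the median was 0.34.

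Some named members changed sign, and the cause was not tested. With library totals the log2 fold change was -0.26 for Rpl3, -0.12 for Rpl30, -0.060 for Rpl34, -0.20 for Rpl4, -0.011 for Rpl41, -0.077 for Rpl5, -0.052 for Rps24, -0.22 for Rps25, -0.24 for Rps26, -0.0042 for Rps27a, -0.27 for Rps29 and -0.23 for Rps4x. Rpl11 was 0.031 in DESeq2, 0.031 with RLE, 0.047 with quality weights, 0.018 on protein-coding nuclear genes, 0.081 with upper-quartile factors and 0.037 without RFP KO-HFD 1 and WT-HFD 2. Rps15a was 0.0094 in DESeq2, 0.0086 with RLE, 0.075 with quality weights, 0.058 with upper-quartile factors and 0.095 without those libraries. With quality weights Rpl30 was -0.080, Rpl4 -0.013 and Rpl5 -0.28, and without those libraries -0.050, -0.036 and -0.29. Without a filter Rpl3 was -0.027 and Rps29 -0.019, and with upper-quartile factors Rpl32 was 0.034. With 1 library, or RFP KO-HFD 1 and WT-HFD 2 together, left out the log2 fold change ran at -0.070 to 0.037 for Rpl11, -0.045 to 0.21 for Rpl3, -0.096 to 0.35 for Rpl30, -0.19 to 0.010 for Rpl32, -0.12 to 0.20 for Rpl4, -0.061 to 1.04 for Rpl41, -0.30 to 0.42 for Rpl5, -0.11 to 0.095 for Rps15a, -0.033 to 0.90 for Rps2, -0.077 to 0.67 for Rps26 and -0.037 to 0.21 for Rps29.

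No member was called after adjustment in edgeR, which does not show that levels were equal. Scaling by totals, by protein-coding counts or by TMM gave different answers, and none measures RNA per cell.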
